A study of Mus musculus with 965 samples.

Results

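Neural crest transcription factors were followed across single cells of differentiating mouse embryoid bodies. The members were 7 genes taken from a list of crest regulators, Sox9, Sox10, Foxd3, Tfap2a, Tfap2b, Snai2 and Pax7, of the 36849 genes in the deposited count table. All 7 had reads in at least 1 cell, and all 7 passed the filter on low counts that left 24083 genes for testing. The cells were 965 in number, from embryoid bodies, aggregates that form when embryonic stem cells of the E14 line are cultured without leukaemia inhibitory factor on plates they cannot attach to. WT cells were compared with Dnmt3a -/- cells (3AKO, clones 3A2 and 3A38) and Dnmt3b -/- cells (3BKO, clones 3B126 and 3B77), which lack one or the other of the de novo DNA methyltransferases, at days 3, 6 and 8 of differentiation. There were 230 WT, 363 3AKO and 372 3BKO cells. Each clone is a single line, the embryoid bodies of a clone and day were pooled before cells were sorted, and 3A2 had no cells at day 8, so that a clone at a day is 1 sample, with 14 samples in all.

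The neural crest arises at the border of the neural plate and leaves it as migrating cells that form peripheral neurons and glia, pigment cells and much of the skeleton of the face. Border factors such as Pax7 and Tfap2a act before specifiers such as Foxd3, Sox9 and Snai2, and Sox10 marks the migrating cells that follow. None of these genes is used by the crest alone. Foxd3 is also active in pluripotent epiblast, Sox9 in neural progenitors and cartilage, Tfap2a and Tfap2b in surface ectoderm and some neurons, Pax7 in dorsal neural tube and muscle progenitors, and Snai2 in many mesenchymal cells.

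Summed over the cells of a sample, reads ranged from 9810248 to 44529830, and single cells held 50096 to 3442378 reads (median 255315). In these sums Dnmt3a stood at 118.3 CPM (reads scaled to a common library total) in WT at day 3 and at 12.99 to 24.12 CPM in the 3AKO clones, and Dnmt3b stood at 238.9 CPM in WT and at 17.83 and 35.27 CPM in the 3BKO clones. Dnmt3b in the 3BKO clones stood at 37.28 and 13.36 CPM at day 6, below WT (69.72) and 3A2 (55.28) but above 3A38 (11.88). At day 8 it did not set the 3BKO clones apart, with 4.244 and 5.504 CPM against 4.221 in WT. The 3AKO clones formed batch 1, WT and 3B126 batch 2 and 3B77 batch 3 of the labels, so genotype and batch cannot be told apart except between WT and 3B126. Day 8 samples of WT and 3B77 went against their labels. Reads of Y-linked genes (at least 3 in a cell) were found in 59 of 141 WT cells at days 3 and 6 but in 0 of 68 cells of WT plate C344 at day 8, which holds most WT cells of that day, whereas clone 3B77 had none in 150 earlier cells and 11 positive cells among the 40 that carry its day 8 label. Tests against day 3 at day 8, calls of list genes and pair counts were therefore repeated without that plate and that library.

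The sequences just upstream of a transcription start are shown for Foxd3, whose share of cells had the smallest p between days 3 and 6, and for the paralogs Tfap2a and Tfap2b, the pair that most often shared cells. The table of RefSeq starts used here (GRCm38.p6) matched 4 of the 7 members, and Sox9, Sox10 and Snai2 are not shown. The 250 bases before the start are given 5′ to 3′ on the gene's strand, with CG dinucleotides, the sites that DNA methyltransferases act on, in capitals.

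Foxd3: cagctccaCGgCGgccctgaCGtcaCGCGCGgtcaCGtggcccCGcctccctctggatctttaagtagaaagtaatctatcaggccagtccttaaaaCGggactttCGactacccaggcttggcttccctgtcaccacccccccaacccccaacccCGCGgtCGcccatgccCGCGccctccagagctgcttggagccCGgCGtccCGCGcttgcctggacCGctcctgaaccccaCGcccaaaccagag

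Tfap2a: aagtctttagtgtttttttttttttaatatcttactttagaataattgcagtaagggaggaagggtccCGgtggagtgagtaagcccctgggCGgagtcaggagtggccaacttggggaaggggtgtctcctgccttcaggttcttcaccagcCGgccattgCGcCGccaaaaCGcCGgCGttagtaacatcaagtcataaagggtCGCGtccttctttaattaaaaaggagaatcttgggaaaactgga

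Tfap2b: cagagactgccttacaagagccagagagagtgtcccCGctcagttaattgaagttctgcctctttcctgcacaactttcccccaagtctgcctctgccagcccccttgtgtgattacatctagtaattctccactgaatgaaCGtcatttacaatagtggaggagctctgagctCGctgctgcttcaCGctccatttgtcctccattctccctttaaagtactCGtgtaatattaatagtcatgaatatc

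The Foxd3 window lies at chr4:99656049-99656298 (plus strand), directly upstream of its only exon, and holds 21 CG dinucleotides, a number reached by 16.3% of all 32851 RefSeq windows. The Tfap2a window shown, at chr13:40734921-40735170 (minus strand), holds 10, reached by 37.8% of windows. A second listed Tfap2a start, with its window at chr13:40733796-40734045 and also 10 CG dinucleotides, is not shown because 180 of the 250 bases lie in exons. The Tfap2b window at chr1:19211804-19212053 (plus strand) holds 5, reached by 55.6%. The windows shown for Tfap2a and Tfap2b lie inside longer gene models of GENCODE M21 without touching an annotated exon. The AP-2 motif GCCNNNGGC, which reads the same on both strands, was in none of the 3 windows and in 13.7% of all windows. No DNA methylation was measured in these cells.

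The genes differed in how many cells held their reads. Tfap2a was detected, with at least 1 read, in 183 cells (18.96%), Sox9 in 85 (8.81%), Snai2 in 64 (6.63%), Foxd3 in 60 (6.22%), Tfap2b in 43 (4.46%), Pax7 in 38 (3.94%) and Sox10 in 6 (0.622%). Reads were few in most of these cells, with a median of 4 for Sox9, 1.5 for Foxd3 and 2 for Sox10 in cells that had any, and a single cell often carried a large part of a sample's reads. Levels in summed reads (CPM from here on scaled with TMM factors) are therefore described beside the share of cells in which a gene was found. There are no molecular identifiers in this protocol, so binomial intervals cover counting error only. Fewer cells with a gene and less of its RNA per cell cannot be told apart in summed reads.

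Per kilobase of merged exon and on the CPM scale, the level of Tfap2a was highest or second to Snai2 at every day. At day 3 it was 0.917 ± 1.26 (SD, n = 5) CPM per kilobase, against 0.577 ± 1.02 for Snai2, 0.56 ± 0.325 for Foxd3, 0.243 ± 0.543 for Tfap2b, 0.041 ± 0.042 for Sox9, 0.00113 ± 0.00253 for Pax7 and 0 for Sox10. At day 8 it was 9.3 ± 16.2 (SD, n = 4), against 8.46 ± 7.05 for Snai2, 3.02 ± 5.32 for Sox9, 2.37 ± 3.03 for Tfap2b, 0.668 ± 0.545 for Pax7, 0.0494 ± 0.0869 for Sox10 and 0.0474 ± 0.0823 for Foxd3. The spread between clones was as large as most of the steps in this order, so neighbours in it cannot be separated.

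**Figure D1:**
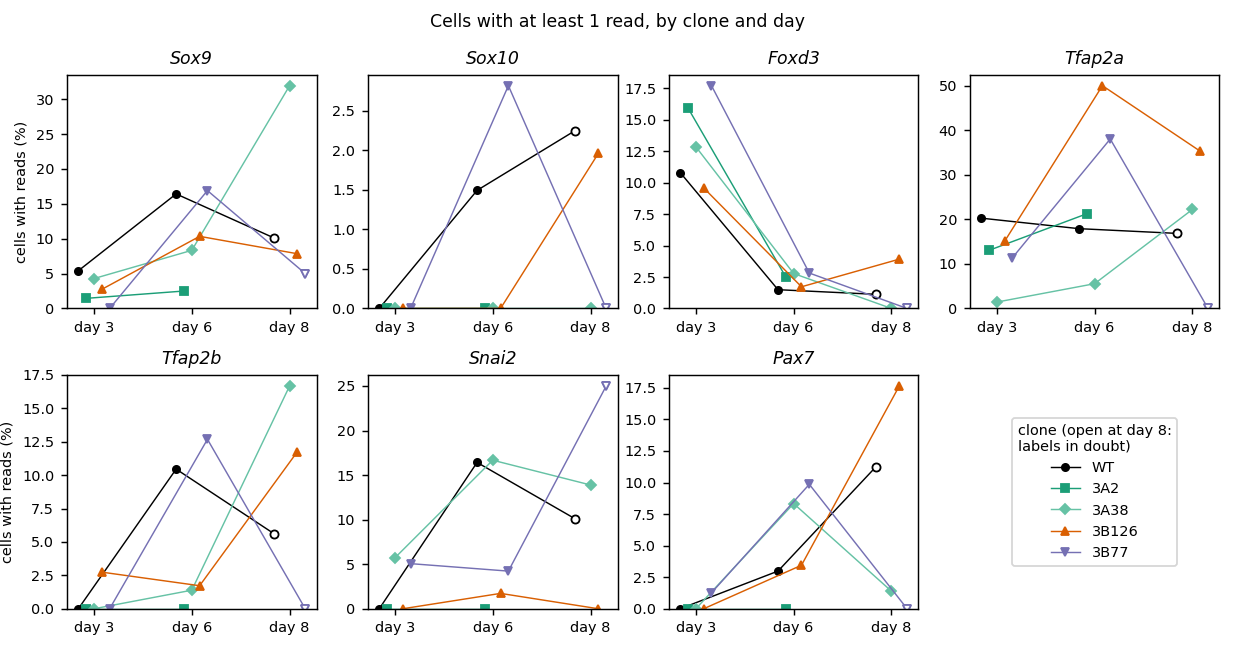
Share of cells with at least 1 read of each gene (vertical axis, percent) at days 3, 6 and 8, 1 line per clone. Open symbols at day 8 mark WT and 3B77, whose labels are in doubt. Foxd3 was at 9.59% or more in every clone at day 3 and at 2.82% or less at day 6, while Sox9 was higher at day 6 than at day 3 in 5 of 5 clones.

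Foxd3, a forkhead factor that keeps both the epiblast and the early crest undifferentiated, was the one member found in fewer cells with time. At day 3 it was detected in 8 of 74 WT cells, 11 of 69 3A2 cells, 9 of 70 3A38 cells, 7 of 73 3B126 cells and 14 of 79 3B77 cells. At day 6 it was found in 1 of 67, 2 of 80, 2 of 72, 1 of 58 and 2 of 71 cells of the same clones. The ranges of the 5 clones do not overlap. The mean share was 13.4% ± 3.42 (SD, n = 5) at day 3 and 2.26% ± 0.615 (SD, n = 5) at day 6, a difference of 11.1 percentage points (two-sided exact permutation test over clones, p = 0.007937, the smallest this design allows, adjusted over 33514 genes p = 0.5553). At day 8 the share was 1.26% ± 1.85 (SD, n = 4) (exact permutation p = 0.01587, again the smallest possible, adjusted p = 0.3418), and without the doubted plate and library p was 0.03571. Between days 3 and 6, 3 members had an unadjusted p under 0.05, beside 6.24% of all genes. Sox9 and Pax7 were higher, beside 3.43% of genes, and Foxd3 lower, beside 2.8%. Between days 3 and 8, 2 members did, beside 9.75% of genes, with Sox9 higher, beside 2.12%, and Foxd3 lower, beside 7.62%. Between days 6 and 8 none did, beside 12.2%.

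The unadjusted p of Foxd3 between days 3 and 6 stayed under 0.05 when any one clone was left out and in cells thinned to 50000 reads (5.4% to 1.11%, lower in 4 of 5 clones, exact permutation p = 0.04762), but at 3 or more reads it was 0.1111. With clones paired, the smallest p the exact test can give is 0.0625 at day 6 and 0.125 at day 8, and Foxd3 reached it at both. Summed reads gave a less even picture, because a single cell of 3A38 at day 6 held 81 of the 88 Foxd3 reads of that sample. The Foxd3 level was 1.347, 1.624, 0.2743, 2.304 and 0.9615 CPM at day 3 and 0.04916, 0.1063, 2.107, 0.4902 and 0.2683 CPM at day 6 in WT, 3A2, 3A38, 3B126 and 3B77. It was lower in 4 of 5 clones, with a log2 fold change of -2.17 ± 1.53 (SE) that did not pass (edgeR, adjusted p = 0.665). Leaving out WT moved this to -0.92, leaving out 3A2 to -1.29 and leaving out 3A38 to -3.54.

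Sox9, a specifier that also directs cartilage and glial fate, was found in more cells after day 3. It was detected in 4 of 74 WT cells, 1 of 69 3A2 cells, 3 of 70 3A38 cells, 2 of 73 3B126 cells and 0 of 79 3B77 cells at day 3, the last of which allows a share of up to 3.8% of cells with a read (3 counts over the cells, the limit used for every 0 here). At day 6 it was found in 11 of 67, 2 of 80, 6 of 72, 6 of 58 and 12 of 71 cells of the same clones. Every clone was higher at day 6, with 3A2 by the least, and the clones of the 2 days overlap. In cells thinned to 50000 reads the mean share was 1.15% at day 3 and 5.17% at day 6, higher in 4 of 5 clones and lower in 3A2 (exact permutation p = 0.06349). The mean share was 2.78% ± 2.16 (SD, n = 5) at day 3, 10.9% ± 5.998 (SD, n = 5) at day 6 (exact permutation p = 0.03175, adjusted p = 0.7636) and 13.7% ± 12.3 (SD, n = 4) at day 8 (exact permutation p = 0.03175, adjusted p = 0.4262).

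At day 8 Sox9 was seen in 23 of 72 3A38 cells, 4 of 51 3B126 cells, 9 of 68 cells of WT plate C344, 0 of 21 cells of the other WT plate and 2 of 40 cells labelled 3B77. Without the doubted plate and library, the exact permutation p between days 3 and 8 was 0.2857. Between days 3 and 6 it was 0.08571 without WT, 3A38 or 3B126 and 0.1143 without 3B77. In summed reads Sox9 stood at 0.3991, 0.03382, 0.3018, 0.1124 and 0 CPM at day 3 and at 5.457, 0.567, 9.148, 0.6034 and 2.113 CPM at day 6. It was higher in 5 of 5 clones, by 4.41 ± 1.29 (SE) on the log2 scale (edgeR, adjusted p = 0.2222), and at day 8 by 4.97 ± 1.36 (edgeR, adjusted p = 0.08805), or by 2.29 without the doubted plate and library (edgeR, adjusted p = 0.9999). The 45.46 CPM of 3A38 at day 8 was far above the 0.6029 to 1.976 CPM of the other clones. Sox9 passed the threshold for day 8 against day 3 when cells were thinned to 50000 reads before summing.

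Pax7, a paired-box factor of the neural plate border, went from near absence to a small share of cells. It was detected in 1 of 365 cells at day 3, a 3B77 cell with 1 read. At day 6 it was found in 2 of 67 WT cells, 0 of 80 3A2 cells, 6 of 72 3A38 cells, 2 of 58 3B126 cells and 7 of 71 3B77 cells. The mean share went from 0.253% ± 0.566 to 4.92% ± 4.07 (SD, n = 5 each, exact permutation p = 0.04762, adjusted p = 0.7636), higher in 4 of 5 clones and equal in 3A2. At day 8 it was found in 9 of 51 3B126 cells, 10 of 68 cells of WT plate C344, 1 of 72 3A38 cells, and none of 21 cells of the other WT plate or of 40 cells labelled 3B77. The single positive 3A38 cell held all 283 Pax7 reads of its sample. Pax7 in summed reads was 0.00663 ± 0.0148 CPM at day 3, 0.6963 ± 0.4929 at day 6 and 3.91 ± 3.19 at day 8 (edgeR against day 3, adjusted p = 0.3006 and 0.1001). No fitted fold change is given for it, because samples of whole groups were at 0.

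Tfap2a, the AP-2 factor required for crest induction, was already present at day 3. It was detected at day 3 in 15 of 74 WT cells, 9 of 69 3A2 cells, 1 of 70 3A38 cells, 11 of 73 3B126 cells and 9 of 79 3B77 cells. At day 6 the counts were 12 of 67, 17 of 80, 4 of 72, 29 of 58 and 27 of 71 cells. WT was the one clone in which the share was not higher at day 6. The mean share was 12.2% ± 6.91 and 26.6% ± 17.5 (SD, n = 5 each, exact permutation p = 0.1429, adjusted p = 0.9746). In cells thinned to 50000 reads it was 5.48% and 16.2%, higher in 5 of 5 clones (exact permutation p = 0.04762, adjusted p = 0.7643). In summed reads Tfap2a was also higher at day 6 in 5 of 5 clones, by 2.42 ± 1.33 (SE) on the log2 scale (edgeR, adjusted p = 0.5419). The value was 1.51 without 3A38 and 3.9 without 3A2.

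Tfap2a at day 6 was found in a larger share of cells in both 3BKO clones than in the other clones. Its share was 50% in 3B126 (95% Clopper-Pearson interval 36.6 to 63.4%) and 38.03% in 3B77 (26.8 to 50.3%), against 17.9% in WT (9.61 to 29.2%), 21.2% in 3A2 and 5.56% in 3A38 (1.53 to 13.6%). Means were 44.01% ± 8.46 (SD, n = 2) and 14.9% ± 8.27 (SD, n = 3). Tfap2a was the 1 member of 7 whose clones did not overlap, beside 14.9% of all 29484 genes (11.6% with 3BKO higher and 3.29% with 3BKO lower). A count of 1 in 7 is near that share, so it does not set the members apart from other genes. The exact permutation test gave p = 0.2, the smallest possible with 2 against 3 clones. Thinned to 50000 reads, the means were 25.4% and 10.0%. Within batch 2, the difference was between 29 of 58 3B126 cells and 12 of 67 WT cells. Cells of 3B126 at day 6 were also the deepest, with a median of 500240 reads against 196104 in WT at that day. Summed reads of Tfap2a did not separate the genotypes, since 15.01 ± 8.423 CPM in 3BKO (SD, n = 2) stood beside 10.18 in WT and 13.75 ± 13.64 in 3AKO (SD, n = 2).

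At day 8 Tfap2a was found in 16 of 72 3A38 cells, 18 of 51 3B126 cells and 15 of 68 cells of WT plate C344. It was in 0 of 40 cells labelled 3B77 and 0 of 21 cells of the other WT plate, which allow shares of up to 7.5% and 14.3%. The level of 3A38, 164.9 CPM, rested largely on 1 cell with 4422 of the 5973 Tfap2a reads. The fitted difference between days 8 and 3 was 2.95 ± 1.41 (SE) on the log2 scale (edgeR, adjusted p = 0.3388) and -0.25 without the doubted plate and library.

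**Figure D2:**
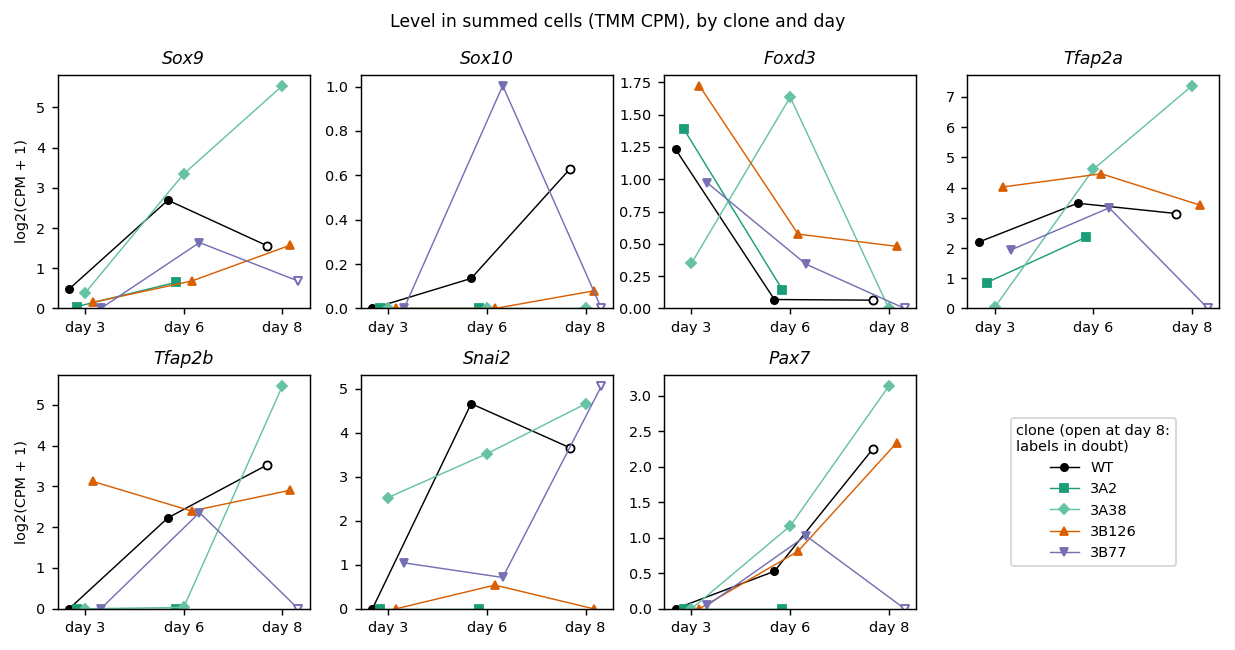
Level of each gene in the summed cells of a clone and day, as log2 of TMM-scaled CPM plus 1, 1 line per clone, with open symbols for day 8 samples whose labels are in doubt. The 3A38 sample at day 8 is the highest for Sox9 (45.46 CPM) and Tfap2a (164.9 CPM), and the clones of 1 day spread widely for every gene.

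Tfap2b, a paralog of Tfap2a with a later role in sympathetic and sensory lineages, was scarce before day 6. At day 3 it was detected only in 2 of 73 3B126 cells, 1 of which held 121 of 137 reads. At day 6 it was found in 7 of 67 WT cells, 0 of 80 3A2 cells, 1 of 72 3A38 cells, 1 of 58 3B126 cells and 9 of 71 3B77 cells. At day 8 it was found in 12 of 72 3A38 cells, 6 of 51 3B126 cells, 5 of 68 cells of WT plate C344 and 0 of 40 cells labelled 3B77. The mean share was 0.548% ± 1.22 at day 3 (SD, n = 5) and 8.51% ± 7.25 at day 8 (SD, n = 4, exact permutation p = 0.09524), and neither it nor the summed level (edgeR, adjusted p = 0.146) passed.

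Snai2, a zinc-finger factor of delaminating crest and of mesenchyme, split the clones. At day 3 it was in 4 of 70 3A38 cells and 4 of 79 3B77 cells and in no cell of the other clones. At day 6 it was in 11 of 67 WT cells and 12 of 72 3A38 cells, but in 0 of 80 3A2 cells, 1 of 58 3B126 cells and 3 of 71 3B77 cells. At day 8 it was in 10 of 72 3A38 cells and 0 of 51 3B126 cells, in 10 of 40 cells labelled 3B77, in 7 of 21 cells of 1 WT plate and in 2 of 68 cells of plate C344. The WT plate with the larger Snai2 share had no reads of the other 6 genes, whereas plate C344 had reads of all 7. The mean share was 2.16% ± 2.96 at day 3 (SD, n = 5) and 12.2% ± 10.3 at day 8 (SD, n = 4, exact permutation p = 0.1111).

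Sox10, the marker of migrating crest and its glia, was nearly absent. It had no read in any of the 365 cells of day 3, and reads in 1 WT and 2 3B77 cells at day 6 and in 1 3B126 cell and 2 cells of WT plate C344 at day 8. The highest count was 28 reads in a 3B77 cell of day 6, and the next 11 reads in a WT cell of day 8. The exact permutation p against day 3 was 0.4444 at day 6 and 0.3333 at day 8.

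Across the summed samples no member passed an adjusted p of 0.05 in edgeR's quasi-likelihood test for day 6 against day 3 (0 of 7, beside 0.0374% of all genes), day 8 against day 3 (0 of 7, beside 0.822% of all genes, 0.669% higher and 0.154% lower) or day 8 against day 6 (0 of 7, beside 0% of all genes). Unadjusted p-values under 0.05 were given to 2, 4 and 1 members, beside 11.6%, 16.3% and 5.59% of all genes. The DESeq2 test, an alternative, called 3, 5 and 0 members. Against day 3, DESeq2 and edgeR without the filter on low counts also called many more of all genes, as given at the end. Without the filter on low counts edgeR called 3, 5 and 0. Without the doubted plate and library it called 0 members at day 8. The exact permutation p for the share of cells at day 8 was then 0.2143 for Tfap2b, Snai2 and Pax7, 0.4643 for Tfap2a and 0.75 for Sox10. Estimates for 6 of 7 members were above 0 for day 6 against day 3, with a median of 3.89 on the log2 scale against 0.108 over all genes, and for day 8 against day 3 the median was 4.97 against -0.0143. Some of these estimates come from genes at 0 in whole groups and depend on the prior count. Sox10 was at 0 CPM in every day 3 sample and Pax7 at a mean of 0.00663 CPM, so their estimates could hardly fall below 0. The day 6 median was the estimate of Tfap2b (3.89 ± 2.325, SE), whose mean level was 1.539 CPM at day 3 and 2.419 CPM at day 6. The medians therefore do not set the members apart from other genes. The members were also chosen with earlier results of these data known. WT is 1 sample at each day, and at day 8 so is 3AKO, so that the contrasts between genotypes take their spread from the groups with 2 clones and assume that a lone sample varies like them. In none of the 8 contrasts between genotypes, at each day or as a difference in change from day 3 to day 6, was a member or any other gene called (0%), and of the members DESeq2 called Snai2 alone, for 3AKO against WT at day 3. Unadjusted p-values under 0.05 were given to 1 member, Tfap2b, for 3AKO against WT at day 6 (0.01197 against 3.687 CPM). For all genes the shares were 3.13% (3BKO) and 7.62% (3AKO) at day 3, 1.86% and 1.42% at day 6, 1.58% and 5.66% at day 8, and 2.3% and 4.95% for the difference in change.

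Genes that accompany these factors were described by lists. Over all genes, 0.0374% were called higher between days 3 and 6 and 0.669% between days 3 and 8. Of 24 other crest specifiers and genes of migratory crest, 1 rose between days 3 and 6, the cadherin Cdh11, by 5.34 ± 0.85 (SE) on the log2 scale (edgeR, adjusted p = 0.0401). Between days 3 and 8, 4 of the 24 rose. These were Cdh11 (6.89 ± 0.941, adjusted p = 0.00617), the E-box repressor Zeb2 (4.49 ± 0.559, adjusted p = 0.00343), and the helix-loop-helix inhibitors Id2 (2.71 ± 0.59, adjusted p = 0.046) and Id3 (3.62 ± 0.773, adjusted p = 0.0448). All 4 also passed without the doubted plate and library. The median estimate of the list, chosen with earlier results of these data known, was 4.41, against -0.0143 over all genes. All 4 are also expressed outside the crest. None of 12 neural plate border genes was called, among them Pax3, a paired-box partner of Pax7, whose level went from 0.242 ± 0.291 CPM at day 3 to 99.9 ± 166 CPM at day 8. None of the crest glia, crest melanocyte, crest neuron or crest-inducing signal genes passed. Of 11 cartilage genes 1 rose, the collagen Col11a1 (7.19 ± 1.25 between days 3 and 8, edgeR, adjusted p = 0.0212), and it too passed without them.

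Markers of other cell types moved over the same days, and their calls stand beside the same shares of all genes, 0.0374% and 0.669%. Of 12 mesenchyme markers, Pdgfra rose between days 3 and 6 (9.05 ± 1.22 on the log2 scale, edgeR, adjusted p = 0.0153), and Pdgfra, Prrx1 and Mest rose between days 3 and 8. Of 10 neuron markers Map2 rose between days 3 and 8 (5.17 ± 1.05, edgeR, adjusted p = 0.046). Without the doubted plate and library Pdgfra and Prrx1 passed, whereas Mest (edgeR, adjusted p = 0.2339) and Map2 (adjusted p = 0.9999) did not. None of 12 epiblast markers passed, although none of the 12 had an estimate above 0. The part of these cell types in the members' summed levels was not tested, and the cells that held each member are described next.

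To see which cells held the members, cells were clustered without them, as the study's methods describe. Of 9 clusters 6 could be named from marker genes. Cluster 1 (159 cells) was epiblast-like, cluster 3 (105) neural progenitor-like, cluster 4 (94) endothelium-like, cluster 6 (75) mesenchyme-like, cluster 7 (40) neuron-like and cluster 8 (37) blood-like. Clusters 0 (217 cells), 2 (158) and 5 (80) stayed unnamed. Their leading genes included Trh and Dnmt3b, Slfn9 and Dppa3, and Gm10801 and Gm10800. No cluster is offered as crest. The members were left out of the clustering, but genes that vary with them were not, so the shares below are a description.

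**Figure D3:**
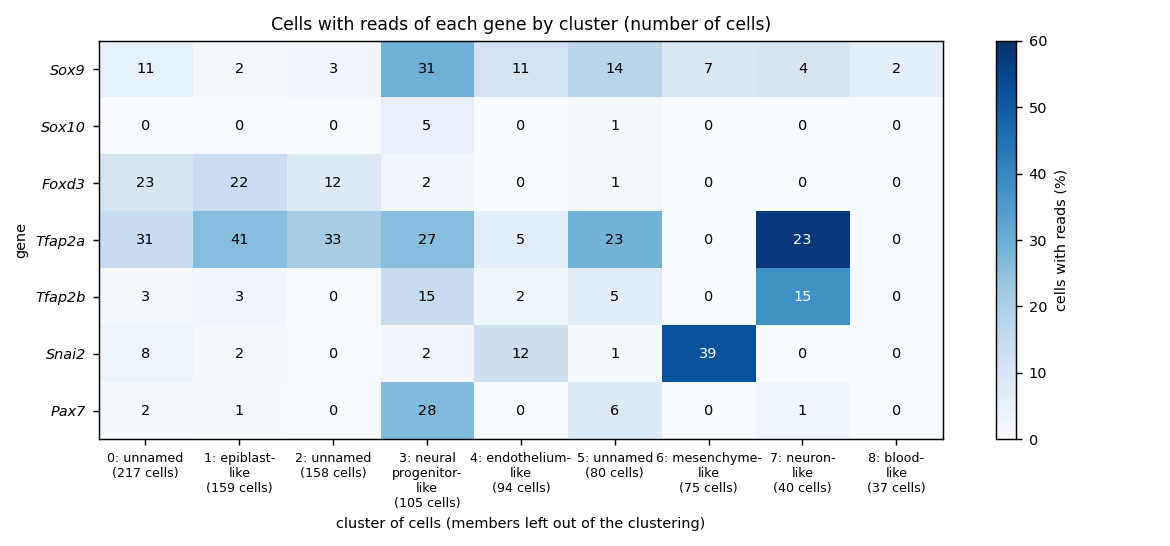
Share of cells with at least 1 read of each gene (shade, percent) and the number of such cells (printed) in each of 9 clusters made without these genes. Foxd3 sits in clusters 0 to 2, Pax7 and Sox9 peak in the neural progenitor-like cluster, Tfap2a and Tfap2b in the neuron-like cluster and Snai2 in the mesenchyme-like cluster. Of the 31 Sox9 cells in the neural progenitor-like cluster, 16 came from 3A38 at day 8.

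The members occupied different clusters. Snai2 was found in 39 of 75 mesenchyme-like cells (52%, Clopper-Pearson interval 40.2 to 63.7%), which were 60.9% of all cells with Snai2 (23.44% when cells were clustered without integration over batches), and in a further 12 of 94 endothelium-like cells. Without the doubted plate and library the mesenchyme-like share was 30 of 51 cells. Tfap2a, Tfap2b, Pax7, Foxd3 and Sox10 were each found in 0 of the 75 mesenchyme-like cells, which allows a share of up to 4.0%. Foxd3 was in 23 cells of cluster 0, 22 of the epiblast-like cluster and 12 of cluster 2, against 3 in all other clusters together.

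Pax7 and Sox9 were most frequent in the neural progenitor-like cluster, where they were detected in 28 and 31 of 105 cells. Of these 31 Sox9 cells, 16 were among the 20 cells that 3A38 at day 8 had in this cluster. The Sox9 peak in the neural progenitor-like cluster thus rests largely on 1 sample. That cluster held 73.7% of all Pax7 cells but 36.5% of Sox9 cells, the remainder of which lay in every other cluster. Sox10 was in 5 cells of it and 1 of cluster 5. Tfap2a reached its highest share in neuron-like cells, 23 of 40 (57.5%), and Tfap2b too, with 15 of 40 (37.5%). Tfap2a was otherwise widespread, at 14.3% in cluster 0 and 25.8% in the epiblast-like cluster. Blood-like cells, which should lack all 7, had Sox9 reads in 2 of 37 cells and none of the other genes, at a median of 249753 reads per cell.

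Within clusters, Tfap2a at day 6 could rarely be compared between more than a few clones. In the neural progenitor-like cluster it was in 12 of 20 3B77 cells, 2 of 23 3A38 cells and 1 of 4 WT cells, with no 3B126 or 3A2 cell there. In cluster 0 it was in 16 of 35 3B126 cells, 1 of 7 3B77 cells and 2 of 14 WT cells. In cluster 5 it was in 7 of 17 3B126 cells, 8 of 24 3B77 cells and 4 of 16 WT cells. The neuron-like cluster went the other way, with 4 of 10 3B77 cells and 2 of 2 WT cells. None of these differences was tested. The mix of clusters differed between the clones. At day 6 the other clones had 58 endothelium-like, 16 mesenchyme-like and 19 blood-like cells, of which 2 held Tfap2a, whereas 3BKO had 4 endothelium-like cells and none of the other classes. The part of this mix in the difference was not tested.

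Cells with more than 1 member were few. Of the 965 cells, 386 (40%) held at least 1 of the 7 genes, 77 (7.98%) at least 2, 12 held 3 and 2 held 4. No cell held more. At day 8, 18 of 72 3A38 cells held 2 or more, at day 6, 13 of 71 3B77 cells did, and in 3A2 it was 1 of 69 cells at day 3 and 0 of 80 at day 6. By cluster, 14 of 40 neuron-like and 26 of 105 neural progenitor-like cells held 2 or more.

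**Figure D4:**
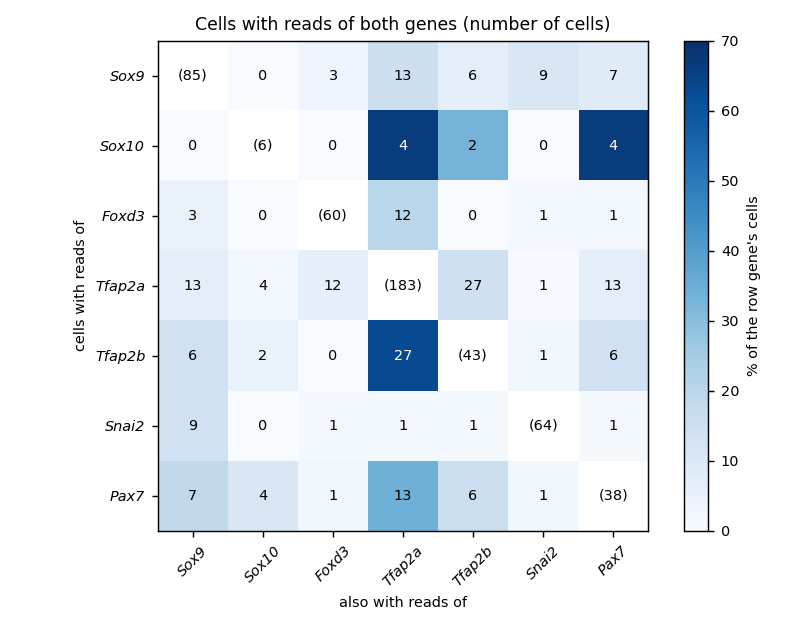
Number of cells with reads of both genes of a pair (printed), shaded by the share of the row gene's cells; the diagonal gives each gene's own number of cells. Tfap2b lies mostly within Tfap2a (27 of 43 cells), and Snai2 and Tfap2a shared 1 cell.

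The pair seen together most often was Tfap2a and Tfap2b, in 27 cells. These were 62.8% of Tfap2b cells and 14.8% of Tfap2a cells, in 5 plates, where the product of the genes' shares in each plate would give 11.4 cells. Without the doubted plate and library it was 24 of 38 Tfap2b cells, against a product of 10.3. The pair kept a like share at a stricter limit, with 13 of 24 Tfap2b cells at 10 or more reads. Of the 27, 14 were neuron-like and 8 neural progenitor-like. Pearson's r of log2(CPM + 1) over the 965 cells was 0.418, the highest among the 6 members compared. Cells of 1 plate share their batch but not their depth, which ran from 56503 to 3442378 reads in 3A38 at day 8. In cells thinned to 50000 reads the pair shared 22 cells, against a product of 7.06. Both r and the pair counts are a description.

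Pax7 and Tfap2a shared 13 cells against a product of 10.1, Pax7 and Tfap2b 6 against 3.17, Pax7 and Sox9 7 against 4.57, and Foxd3 and Tfap2a 12 against 8.74. At 3 or more reads of each, these pairs in the same order shared 4 against 4.25, 3 against 1.3, 2 against 1.75 and 8 against 1.83. In cells thinned to 50000 reads the values were 7 against 3.69, 3 against 1.35, 2 against 1.51 and 2 against 1.74. Sox9 and Tfap2a shared 13 cells against 20.1, and Snai2 and Tfap2a 1 cell against 7.45. Snai2 and Sox9 shared 9 cells against 7.55, 6 of them mesenchyme-like, and 3 against 4.96 at 3 or more reads of each. Of the 6 Sox10 cells, 4 held Tfap2a and 4 held Pax7, none held Sox9, Foxd3 or Snai2, and 1 held no other member.

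A few single cells came closest to a combined profile, and they were chosen after their values were seen. One 3A38 cell of day 6 held 312 reads of Sox9, 81 of Foxd3 and 613 of Tfap2a, with 372 of Pax3 and 1418 of Ednrb, the endothelin receptor of crest and its pigment line, and 0 of Sox2, Col3a1 and Pou5f1, out of 1166479 reads. One cell of WT plate C344 held 11 reads of Sox10, 7 of Tfap2a, 6 of Pax3 and 5 of Erbb3, the neuregulin receptor of crest and glia, and 0 of Sox2. It was the one cell of those with Sox10, or with 3 or more members, that had Erbb3 reads. The 2 cells with 4 members, 1 of WT and 1 of 3B77 at day 6, both held Sox10, Tfap2a, Tfap2b and Pax7. The 3B77 cell had 28 reads of Sox10, 25 of Tfap2b, 7 of Tfap2a, 1 of Pax7 and 15 of Pax3. The WT cell had 87 of Tfap2a, 7 of Tfap2b, 4 of Pax7 and 2 of Sox10, with 45 of Sox2 and 0 of Pax3.

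The genes most alike to each member over the 965 cells differed between members. For Pax7 these were Pantr1 (Pearson r = 0.366), Fabp7, Peg12, Pou3f2 and Hes5, of which Fabp7 was in 30 of the 38 Pax7 cells (78.9%, against 43.3% in cells of the same plates). For Sox9 they were C130071C03Rik (r = 0.388), Pou3f3, Zic1, Pantr1 and Gm3764. Pantr1 is on both lists, and Zic1 was in 34 of 85 Sox9 cells (40%, against 22.2%). For Tfap2a they were Nhlh2 (r = 0.385), Dcx, Tubb3, Map2 and Rab3c, and for Tfap2b Dcx (r = 0.445), Nhlh2, Dcc, Rab3c and Cntn1, so the AP-2 genes shared Nhlh2, Dcx and Rab3c. For Snai2 they were Col1a2 (r = 0.559), Hand1, Col1a1, Hand2 and Hand2os1. For Foxd3 they were Utf1 (r = 0.224), Gm33994, Fgf4, Platr10 and Ms4a14, and Utf1, a marker of pluripotent cells, was in 55 of 60 Foxd3 cells (91.7%, against 84.3% in cells of the same plates). With this few positive cells such values are weak guides to rank.

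The neural plate border gene Pax3, picked here after its values were seen, separated the members in the same way. It was found in 73.7% of Pax7 cells, 55.8% of Tfap2b cells and 43.5% of Sox9 cells, where 33.3%, 30.01% and 24.1% would follow from the plates those cells came from. It was found in 4.69% of Snai2 cells against 18.1%. Snai2 cells instead held the collagen-rich profile of mesenchyme, with mesenchyme markers at a mean of 41% of cells per gene against 20.6% for the same plates. Foxd3 cells held epiblast markers at a mean of 74.9% against 68.7%, and Pax7 cells held neural progenitor markers at 64.1% against 35.4%.

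Sox9 lies on chromosome 11 (112782224 to 112787760, plus strand), Sox10 on 15 (79154908 to 79165240, minus), Foxd3 on 4 (99656299 to 99658622, plus), Tfap2a on 13 (40715302 to 40738376, minus), Tfap2b on 1 (19208914 to 19238576, plus), Snai2 on 16 (14705852 to 14709385, plus) and Pax7 on 4 (139737062 to 139833528, minus) in GRCm38 with GENCODE M21. Tfap2a overlaps 3 antisense genes. The strand setting of the counting is not stated, and where the genes overlap their reads cannot be told apart. One of these, Gm26688, had 47 of its 48 reads in cells that also held Tfap2a.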

How the data were processed

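Cells were sorted singly into plates and sequenced by a Smart-seq2 protocol (full length, single-end, no molecular identifiers). The authors trimmed reads with Trim Galore 0.5.0, aligned them with STAR 2.7.1a to mm10/GRCm38 and deposited counts of uniquely mapped reads per gene name from featureCounts 1.6.1. They kept cells with at least 50000 assigned reads, 2000 genes and at most 50% mitochondrial reads. The counts were used as deposited, and no doublet caller was run on these singly sorted cells.

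Here the cells of a clone and day were summed to 14 samples. Genes passing filterByExpr were tested with edgeR 4.0.16 (quasi-likelihood, robust, TMM, Benjamini-Hochberg) on 9 genotype-by-day means. Shares of cells were compared by exact permutation of clones, two-sided, adjusted over all genes instead of over the 7 members as first planned. p-values measure the spread between clones. With group means removed, samples of the same clone correlated at 0.155 (3AKO) and at -0.000718 to 0.0615 (3BKO). The 2 clones of a genotype mirror each other there and give the same value, and WT gives none. These values therefore do not show that pairing can be ignored, and the clones pair the days as the same cell line. Clusters were made with Seurat 5.3.0 (2000 variable genes without the members, integration over 3 batches, 8 components, resolution 0.8). A cluster was named when at least 3 markers of a list, and most of those measured, were more than 2-fold higher than in the other cells and 1 of them was among its 10 leading genes. The 7 members were always named, and of each list the called genes and up to 4 of highest mean CPM. Members and lists were chosen with earlier results of these data known. The alternatives were RLE factors, no filter, DESeq2 1.42.0, the clone block, leaving out each clone or the doubted libraries, thinned cells, other read limits and other cluster settings.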

Additional observations from a re-analysis of the deposited data

Results flagged for a closer look

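Of 40 sets of 4 or 5 clones examined, 12 held a clone that stood apart from the others by Dixon's test. The limits of that test assume normally spread values, which these values with many zeros are not. Where only 1 clone was above 0 the flag was fixed in advance, so 12 of 40 is not set against a chance rate. At day 8, 3A38 stood apart for Sox9 (45.46 CPM against 0.6029 to 1.976) and Tfap2a (164.9 CPM against 0 to 9.709). One cell held 353 of the 1647 Sox9 reads, and another cell held 4422 of the 5973 Tfap2a reads. At day 6, 3A38 stood apart for Foxd3 (2.107 CPM against 0.04916 to 0.4902), with 81 of 88 reads in 1 cell, and at day 3 for Snai2 (4.773 CPM against 0 to 1.061).

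At day 3, 3B126 stood apart for Tfap2a (15.23 CPM against 0.02743 to 3.592) and for Tfap2b, both in CPM (7.697 against 0) and in the share of cells (2.74% against 0%). At day 8 it stood apart for Foxd3 (0.3952 CPM against 0 to 0.04551). Sox10 was set apart in 3B77 at day 6 (1.006 CPM against 0 to 0.09832), where 1 cell held 28 of 30 reads, and in WT at day 8 (0.5461 CPM against 0 to 0.05645), all from plate C344. Pax7 in 3B77 at day 3 (0.03316 CPM and 1.266% of cells, against 0) was a single read.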

How the results depend on the processing

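For day 6 against day 3, edgeR called 0 members, but 3 without the low-count filter (Sox9, Tfap2a, Snai2) and 3 with DESeq2 (Sox9, Snai2, Pax7). For day 8 against day 3 it called 0, but 5 without the filter, 5 with DESeq2 and 1 with thinned cells (Sox9). Member calls also changed when a clone was left out. Leaving out a knockout clone leaves 1 sample in a group, so those counts are not given. Between genotypes DESeq2 called 1. Calls over all genes are not given for thinned cells or for DESeq2 between genotypes, so those member counts cannot be set against other genes. Over all genes, calls for day 6 against day 3 went from 9 to 808 without the filter and 1500 with DESeq2, and for day 8 against day 3 from 198 to 1555 and 2876. The Tfap2a change at day 8 reversed to -0.2475 without the doubted plate and library. The cause was not tested.

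Members with an exact permutation p under 0.05 for their share of cells numbered 3 at day 6 and 1 to 3 when a clone was left out. At day 8 they numbered 2, but 1 at 3 or more reads, 0 at 10 or more, 1 with thinned cells, 1 without the doubted plate and library and 0 to 1 when a clone was left out. With clones paired as a replicate block they numbered 0 at both days, where the smallest possible p was 0.0625 and 0.125, and edgeR with the block called 0 members. Cells with 2 or more members fell from 77 to 45 at 3 or more reads, 20 at 10 or more and 40 when thinned, and were 68 without the doubted plate and library. That count and the list genes without them were alternatives chosen after seeing the data. The share of Snai2 cells in mesenchyme-like clusters was 23.44% without integration and 60.94% with it. Of the values of single genes, 229 kept their direction and side of the threshold, 27 gained and 33 lost the threshold, 3 moved and 1 reversed. Leaving out WT was not run between genotypes, since WT is 1 clone.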
